A study of Mus musculus with 8 samples.

Results

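Spleens of R848-treated mice were compared across 3 strains, C57BL/6 wild type, TLR7-/- and IFNAR-/-, for the 84 Toll-like receptor (TLR) pathway genes of a quantitative PCR plate. The comparison rests on the 3 deposited delta-Ct columns of R848-treated spleens, 1 for each strain, which hold 4 of the 8 samples of the series. All 84 pathway genes are members, and none was chosen by its value.

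R848 (resiquimod) was dosed daily at 1 mg per kg for 7 days, and Mock-treated mice received PBS. The wild-type column is the authors' mean of 2 experiments and carries no error. The TLR7-/- and IFNAR-/- columns are 1 sample each. Every sample was whole-spleen RNA pooled from 3 mice, so the spread between animals is not in the data. The deleted part of each gene, the backcross of the deficient strains, and the age and sex of the mice are not given in the sources used here. No *Ifnar* gene is on the plate, and the part of *Tlr7* that its primers amplify is not stated, so neither deficiency could be checked from the values. In whole spleen, fewer cells of a type and less RNA per cell cannot be told apart.

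Levels are given as delta-Ct, the PCR cycle at which a gene crossed threshold minus the mean of that cycle for *Hprt1*, *Hsp90ab1* and *Gapdh*. A lower delta-Ct is a higher level, and 1 cycle is a 2-fold difference if each cycle doubles the product. Differences are on the log2 scale, deficient strain over wild type, and a gene is counted as higher or lower from 2-fold. With 1 value per strain no test was possible, so "higher" and "lower" refer to these values alone. Threshold cycles above 35 had been set to 35, which puts a ceiling on delta-Ct in each column. That ceiling was 15.63 in the TLR7-/- column, where 5 genes stood at it, and 14.93 in the IFNAR-/- column, where 10 genes did. A deficient column at its ceiling gives "at least" a given fold when wild type was higher, and no direction otherwise.

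Toll-like receptors recognise microbial products at the cell surface or nucleic acids in endosomes. TLR7, and in humans also TLR8, is bound by R848 and signals through MyD88, the IRAK kinases and TRAF6 to NF-kB, MAP kinases and interferon regulatory factors. Type I interferons made downstream act back through their receptor, IFNAR, to raise a large set of interferon-inducible genes, some of them TLR pathway genes themselves. The spleen holds B cells, dendritic cells and macrophages that carry these receptors.

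In TLR7-/- spleen 25 of 84 genes (29.8%) were at least 2-fold above wild type and 12 (14.3%) at least 2-fold below, with a median difference of 0.39. IFNAR-/- spleen had 25 genes (29.8%) above wild type and 13 (15.5%) below, with a median of 0.36. These comparisons share the wild-type column, and their values are set side by side. Of the lower genes, 2 in TLR7-/- and 6 in IFNAR-/- are known only as bounds, and 1 and 3 genes have no direction. More genes were higher than lower with each housekeeping reference tried, but neither *Actb* nor *Gusb* was tried alone. *Actb* was higher by 0.49 in each deficient strain, a larger shift than either median. *Gusb* lay the other way, at -0.31 in TLR7-/- and -1.11 in IFNAR-/-. The split therefore depends on the housekeeping genes used. In TLR7-/- the split was 22 higher and 13 lower with *Hprt1* or with *Hsp90ab1*, 32 and 10 with *Gapdh*, and 25 and 13 with all 5 housekeeping genes. In IFNAR-/- it was 22 and 18 with *Hprt1*, and 28 and 13 with each of the other 3. Centring on the median of the 84 genes, which balances the signs by construction, gave 15 and 15 in TLR7-/-, and 18 and 20 in IFNAR-/-. Under all of these settings the call held for 15 of the 25 higher and 10 of the 12 lower genes in TLR7-/-, and for 18 of the 25 higher and 13 of the 13 lower genes in IFNAR-/-.

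**Figure D1:**
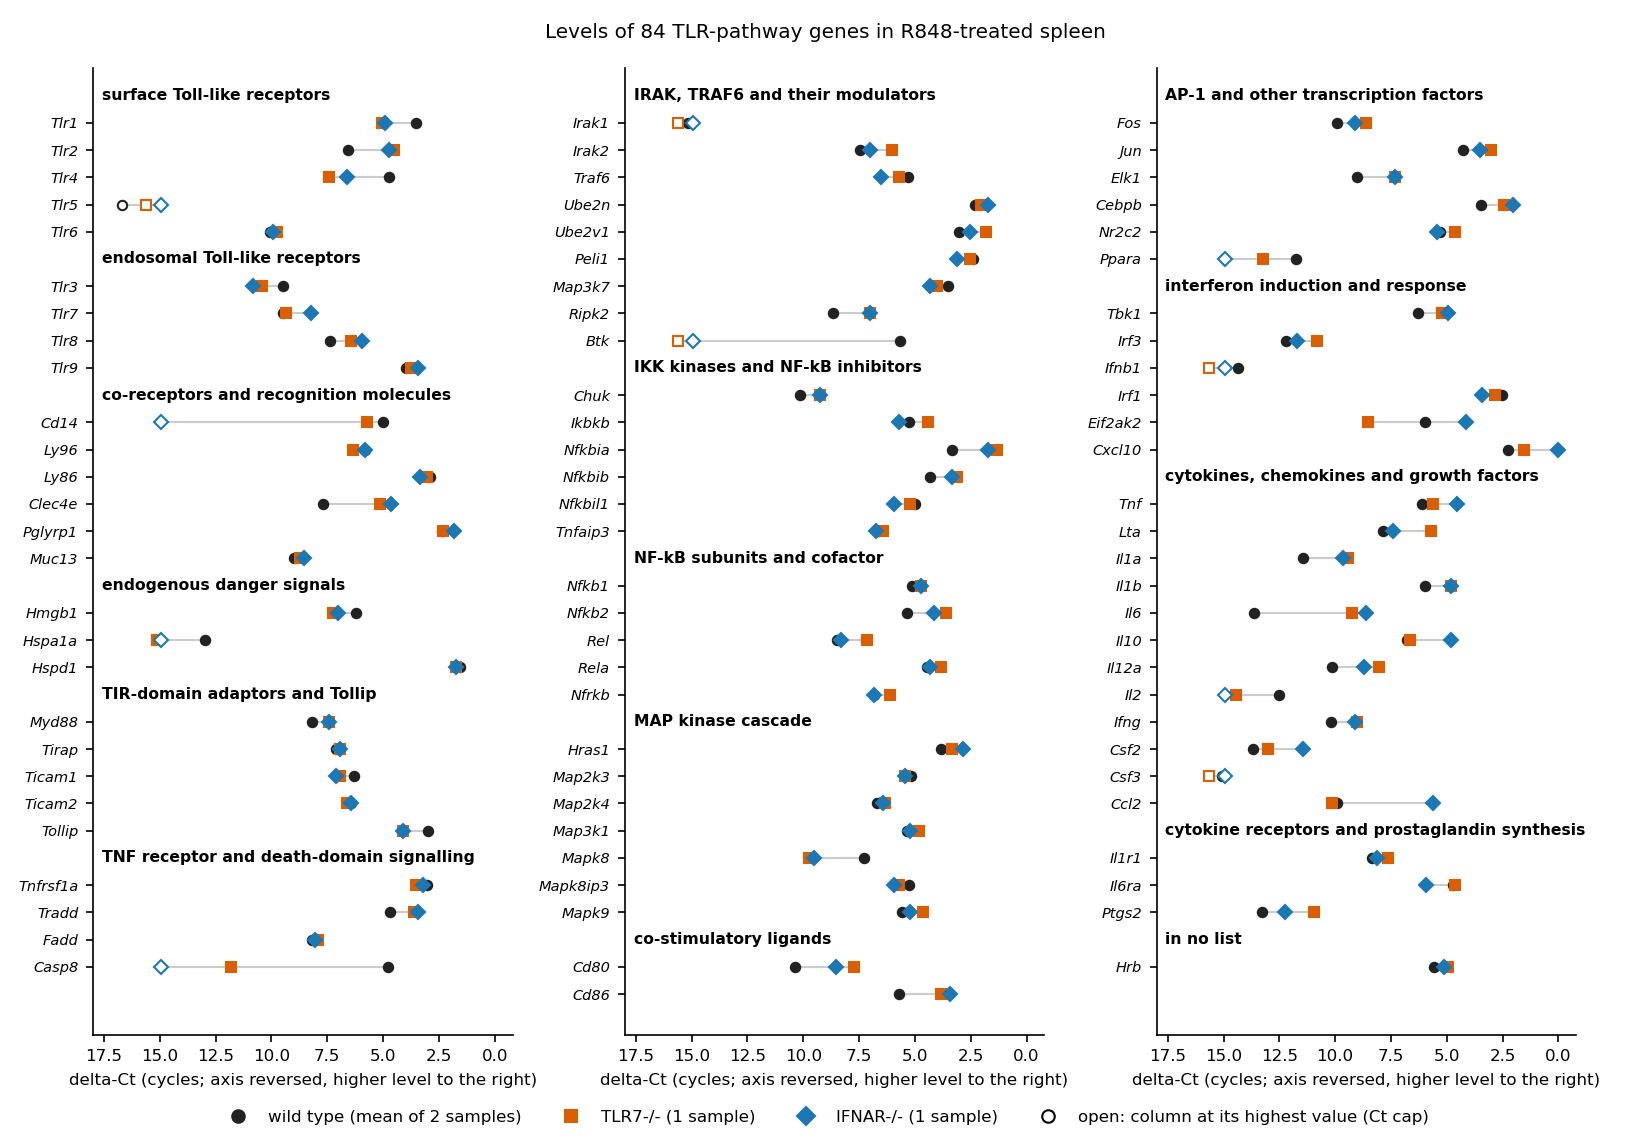
Delta-Ct in cycles of the 84 pathway genes in R848-treated spleen, grouped by role, with the axis reversed so that a higher level lies to the right; circles are wild type (mean of 2 samples), squares TLR7-/- and diamonds IFNAR-/- (1 sample each), and open symbols stand at the highest value of their column. The 3 symbols lie within 1 cycle for 34 genes and spread over more than 2 cycles for 20, with *Btk*, *Casp8*, *Cd14* and *Il6* spread widest.

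Of the 5 housekeeping genes, 3 set the scale on which these differences are read. *Hprt1*, a purine salvage enzyme, was at 2.57 in wild type, 2.43 in TLR7-/- and 2.33 in IFNAR-/-. *Hsp90ab1*, a chaperone, was at -1.23, -1.37 and -1.07 in the same order, and *Gapdh*, a glycolytic enzyme, at -1.33, -1.07 and -1.27. The other members are not part of that reference. *Actb*, cytoskeletal actin, was at -3.68 in wild type and -4.17 in each deficient strain. *Gusb*, a lysosomal glucuronidase, spread most, from 3.72 in wild type to 4.03 in TLR7-/- and 4.83 in IFNAR-/-. *Gusb* was thus 2.16-fold lower in IFNAR-/- than in wild type, while the other 4 stayed within 0.49 cycles. The median delta-Ct of the 84 genes was 6.25 in wild type, 6.23 in TLR7-/- and 6.18 in IFNAR-/-.

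Among the surface receptors, *Tlr2* was higher and *Tlr4* and *Tlr1* were lower in each deficient strain than in wild type. *Tlr4*, the receptor for lipopolysaccharide, stood at a delta-Ct of 4.72 in wild type, 7.43 in TLR7-/- and 6.63 in IFNAR-/-. Its level was therefore 6.54-fold lower in TLR7-/- and 3.76-fold lower in IFNAR-/-, the largest deficit of any receptor on the plate in TLR7-/-. *Tlr1*, which pairs with TLR2 to bind bacterial lipopeptides, was at 3.52 in wild type, 5.03 in TLR7-/- and 4.93 in IFNAR-/-, or 2.85-fold and 2.66-fold lower. Its partner *Tlr2* lay the other way, at 6.57 in wild type, 4.53 in TLR7-/- and 4.73 in IFNAR-/-, which is 4.11-fold and 3.58-fold higher. *Tlr6*, the alternative TLR2 partner, barely differed, at 10.07, 9.73 and 9.93. *Tlr5*, the flagellin receptor, was at the ceiling of each deficient column and at 16.67 in wild type, the highest value there, so no direction can be given.

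The endosomal receptors spanned a narrower range than the surface receptors, and none of the 4 reached 2-fold in TLR7-/- with the 3 reference genes. In IFNAR-/- 2 were higher and 1 lower. Over the plate 29.8% were higher in each strain, and 14.3% were lower in TLR7-/- and 15.5% in IFNAR-/-. Centring on the median gene gave 1 higher and 1 lower in IFNAR-/-. *Tlr7* itself, the R848 receptor, was at 9.47 in wild type, 9.33 in TLR7-/- and 8.23 in IFNAR-/-. The TLR7-/- spleen thus gave a *Tlr7* signal within 0.14 cycles of wild type, and the IFNAR-/- spleen a level 2.36-fold above it. *Tlr8*, its neighbour in sequence and position, was at 7.37 in wild type, 6.43 in TLR7-/- and 5.93 in IFNAR-/-, the last being 2.71-fold higher. *Tlr9*, the CpG DNA receptor, spanned 0.54 cycles, at 3.97, 3.73 and 3.43. *Tlr3*, the receptor for double-stranded RNA, was the lower member of the group, at 9.47 in wild type, 10.43 in TLR7-/- and 10.83 in IFNAR-/-. Its deficit reached 2-fold in IFNAR-/-, at 2.57-fold, and was 1.95-fold in TLR7-/-, past 2-fold under every other reference but *Gapdh*.

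Of the 6 co-receptors and recognition molecules, *Clec4e* stood out in each deficient strain and *Cd14* in IFNAR-/-. *Clec4e*, which encodes Mincle, a lectin of myeloid cells for mycobacterial glycolipid, was at 7.67 in wild type, 5.13 in TLR7-/- and 4.63 in IFNAR-/-. That is 5.82-fold higher in TLR7-/- and 8.22-fold higher in IFNAR-/-. *Cd14*, the lipopolysaccharide-binding co-receptor of monocytes and macrophages, was at 5.02 in wild type and 5.73 in TLR7-/-, but at the ceiling of 14.93 in IFNAR-/-, at least 962-fold lower. *Cd14* is in one of the first 4 wells, and *Ccl2* in the neighbouring well read 5.63 in that IFNAR-/- column. The part of plate position was not tested. The other co-receptors and recognition molecules lay within 0.54 cycles of wild type. They are *Ly96*, which encodes MD-2, the lipopolysaccharide-binding partner of TLR4, *Ly86*, which encodes MD-1, the peptidoglycan recognition protein gene *Pglyrp1*, and the mucin gene *Muc13*.

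Among the 3 endogenous danger signals, *Hspd1*, the mitochondrial chaperonin, was nearly level, at 1.57 in wild type and 1.73 in each deficient strain. *Hmgb1*, a chromatin protein that acts as an alarmin outside the cell, was at 6.22 in wild type, 7.23 in TLR7-/- and 7.03 in IFNAR-/-. Its deficit in TLR7-/-, 2.01-fold, lies at the threshold and drops below it with *Gapdh* alone as the reference. *Hspa1a*, an inducible HSP70, was a late signal, at 12.97 in wild type, 15.13 in TLR7-/- and the ceiling in IFNAR-/-. It was 4.47-fold lower in TLR7-/- and at least 3.89-fold lower in IFNAR-/-.

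The TIR-domain adaptors couple the receptors to their kinases, and *Tirap* and *Ticam2* were among the genes that differed least. *Tirap*, the bridge between TLR2 or TLR4 and MyD88, was at 7.12 in wild type and 6.93 in each deficient strain. *Ticam2*, which encodes TRAM of the TLR4 pathway, was at 6.42, 6.63 and 6.43. *Ticam1*, which encodes TRIF, the adaptor of TLR3 and TLR4, was at 6.32, 6.93 and 7.13, below wild type by less than 2-fold in each strain. *Myd88*, the adaptor that TLR7 needs, was 1.67-fold higher in each deficient strain, at 8.17 in wild type and 7.43 in both of them. Of these adaptors and *Tollip*, 5 genes in all, *Tollip* was the only one past 2-fold with the 3 reference genes. Over the plate 29.8% were higher in each strain, and 14.3% were lower in TLR7-/- and 15.5% in IFNAR-/-. *Tollip*, which restrains IRAK signalling, was at 2.97 in wild type and 4.13 in each deficient strain, 2.23-fold lower. With *Gapdh* alone its log2 difference in TLR7-/- was -0.9, below 2-fold. Centring on the median gene gave 2 lower members in each strain, beside 17.9% lower over the plate in TLR7-/- and 23.8% in IFNAR-/-. *Tirap*, *Ticam2* and *Hspd1* were among the 5 genes with the smallest range over the 3 columns, with the death-domain adaptor *Fadd* (8.17, 7.93 and 8.03) and the MAP kinase kinase *Map2k3* (5.17, 5.43 and 5.43).

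In the IRAK and TRAF6 module, 3 of 9 genes were higher and 1 lower in TLR7-/-, and 1 higher and 2 lower in IFNAR-/-, beside 29.8% higher and 14.3% or 15.5% lower over the plate. Centring on the median gene gave 1 higher and 4 lower in IFNAR-/-. *Irak1*, the kinase that MyD88 recruits, was barely detected, at 15.17 in wild type and at the ceiling of each deficient column, so that it carries little information here. *Irak2*, its partner in sustained signalling, was at 7.47 in wild type, 6.03 in TLR7-/- and 7.03 in IFNAR-/-, 2.71-fold higher in TLR7-/- and 1.36-fold in IFNAR-/-. *Traf6*, the ubiquitin ligase downstream of the IRAKs, was at 5.32, 5.73 and 6.53, and 2.31-fold lower in IFNAR-/-. *Ripk2*, the kinase of NOD receptors, was at 8.67 in wild type and 7.03 in each deficient strain, 3.12-fold higher. *Ube2v1*, part of the ubiquitin-conjugating complex that works with TRAF6, was at 3.02, 1.83 and 2.53, and 2.28-fold higher in TLR7-/-. Its partner *Ube2n*, the ubiquitin ligase gene *Peli1* and *Map3k7*, which encodes the kinase TAK1, stayed within 0.81 cycles of wild type in both comparisons. *Btk*, the tyrosine kinase of B-cell receptor signalling, had the largest difference in TLR7-/- and one of the 3 largest in IFNAR-/-. It was at 5.67 in wild type and at the ceiling of each deficient column, at least 996-fold lower in TLR7-/- and at least 613-fold lower in IFNAR-/-. Its well is also among the first 4 of the plate.

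The TNF receptor and death-domain genes showed the same split between a well-detected majority and an outlying member. *Tradd*, the adaptor of TNF receptor 1, was at 4.67 in wild type, 3.63 in TLR7-/- and 3.43 in IFNAR-/-, 2.06-fold and 2.36-fold higher. After centring on the median gene it was below 2-fold in each strain. *Tnfrsf1a*, the receptor, was at 3.02, 3.53 and 3.23, within 2-fold in each strain. *Casp8*, the initiator caspase of death receptors, was at 4.77 in wild type, 11.83 in TLR7-/- and the ceiling in IFNAR-/-. It was 133-fold lower in TLR7-/-, and in IFNAR-/- its log2 difference was at most -10.16. Its well is also among the first 4 of the plate.

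The IkB proteins hold NF-kB in the cytoplasm, and 2 of their genes were past 2-fold in TLR7-/- and 1 in IFNAR-/-. Over all 6 IKK and NF-kB inhibitor genes the higher count was 2 in TLR7-/- and 1 in IFNAR-/-, beside 29.8% of the plate in each. It reached 4 in TLR7-/- with *Gapdh* alone, and 3 in IFNAR-/- with *Gapdh*, *Hsp90ab1* or all 5 housekeeping genes. *Nfkbia*, which encodes IkB-alpha, was at 3.32 in wild type, 1.33 in TLR7-/- and 1.73 in IFNAR-/-, 3.97-fold and 3.01-fold higher. *Nfkbib*, which encodes IkB-beta, was at 4.32, 3.13 and 3.33, 2.28-fold higher in TLR7-/- and 1.99-fold in IFNAR-/-. *Tnfaip3*, which encodes A20, a deubiquitinase that ends NF-kB signalling and another NF-kB target, stayed within 2-fold, at 6.62, 6.43 and 6.73. *Chuk*, the IKK-alpha kinase gene, was 1.92-fold higher in each strain, at 10.17 in wild type and 9.23 in both. *Ikbkb*, the IKK-beta gene, was at 5.27, 4.43 and 5.73 and did not reach 2-fold against wild type in either strain. The related gene *Nfkbil1* was at 5.02, 5.23 and 5.93. Of 4 inhibitors of TLR signalling on the plate (*Tollip*, *Il10*, *Tnfaip3* and *Nfkbia*), 1 was higher and 1 lower in TLR7-/-, and 2 were higher and 1 lower in IFNAR-/-. The shares over the plate were 29.8% higher in each strain, and 14.3% lower in TLR7-/- and 15.5% lower in IFNAR-/-.

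Of the NF-kB subunits, *Nfkb2*, the p100 precursor of the non-canonical pathway, was at 5.37 in wild type, 3.63 in TLR7-/- and 4.13 in IFNAR-/-. It was 3.34-fold higher in TLR7-/- and 2.36-fold higher in IFNAR-/-, although centring on the median gene took the IFNAR-/- difference below 2-fold. *Rel*, the c-Rel subunit of lymphocytes, was at 8.47, 7.13 and 8.33, 2.53-fold higher in TLR7-/- and level with wild type in IFNAR-/-. *Nfkb1*, the p105 precursor, was 1.31-fold higher in each strain, at 5.12 in wild type and 4.73 in both. *Rela*, the p65 subunit, was at 4.47, 3.83 and 4.33, and *Nfrkb*, an NF-kB-related factor of chromatin remodelling, at 6.82, 6.13 and 6.83. Over the 5 genes the median difference was 0.69 in TLR7-/- and 0.14 in IFNAR-/-, beside 0.39 and 0.36 over all 84.

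*Mapk8*, which encodes the stress kinase JNK1, was the only one of 7 MAP kinase genes past 2-fold. Over the plate 29.8% were higher in each strain, and 14.3% were lower in TLR7-/- and 15.5% in IFNAR-/-. *Mapk8* was lower in both. It was at 7.27 in wild type, 9.73 in TLR7-/- and 9.53 in IFNAR-/-, 5.50-fold and 4.79-fold lower. *Mapk9*, the JNK2 gene, lay the other way by less than 2-fold, at 5.57, 4.63 and 5.23. The small GTPase gene *Hras1* was at 3.82, 3.33 and 2.83 and stopped at 1.99-fold in IFNAR-/-. *Map2k3*, *Map2k4*, *Map3k1* and the JNK scaffold gene *Mapk8ip3* stayed within 0.66 cycles of wild type.

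Among AP-1 and other transcription factors, 4 of 6 genes were higher in TLR7-/- and 2 of 6 in IFNAR-/-, beside 29.8% of the plate in each, and *Ppara* was lower in each strain. *Jun*, an AP-1 subunit, was at 4.27 in wild type, 3.03 in TLR7-/- and 3.53 in IFNAR-/-, 2.36-fold and 1.67-fold higher. Its dimer partner *Fos* was at 9.92, 8.63 and 9.13, 2.45-fold and 1.73-fold higher. *Elk1*, an ETS factor that MAP kinases activate, was at 9.02 in wild type and 7.33 in each deficient strain, 3.23-fold higher. *Cebpb*, a factor of macrophage activation, was at 3.47, 2.43 and 2.03, 2.06-fold and 2.71-fold higher. *Ppara*, a nuclear receptor of fatty acid oxidation, was a late signal at 11.77 in wild type, 13.23 in TLR7-/- and the ceiling in IFNAR-/-. It was 2.75-fold lower in TLR7-/- and at least 8.94-fold lower in IFNAR-/-. Centring on the median gene left 1 of the 4 higher genes of TLR7-/- past 2-fold, *Elk1*. The nuclear receptor gene *Nr2c2* was at 5.32, 4.63 and 5.43, and *Hrb*, which encodes an Arf GTPase-activating protein and stands in none of the lists, at 5.57, 4.93 and 5.13.

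**Figure D2:**
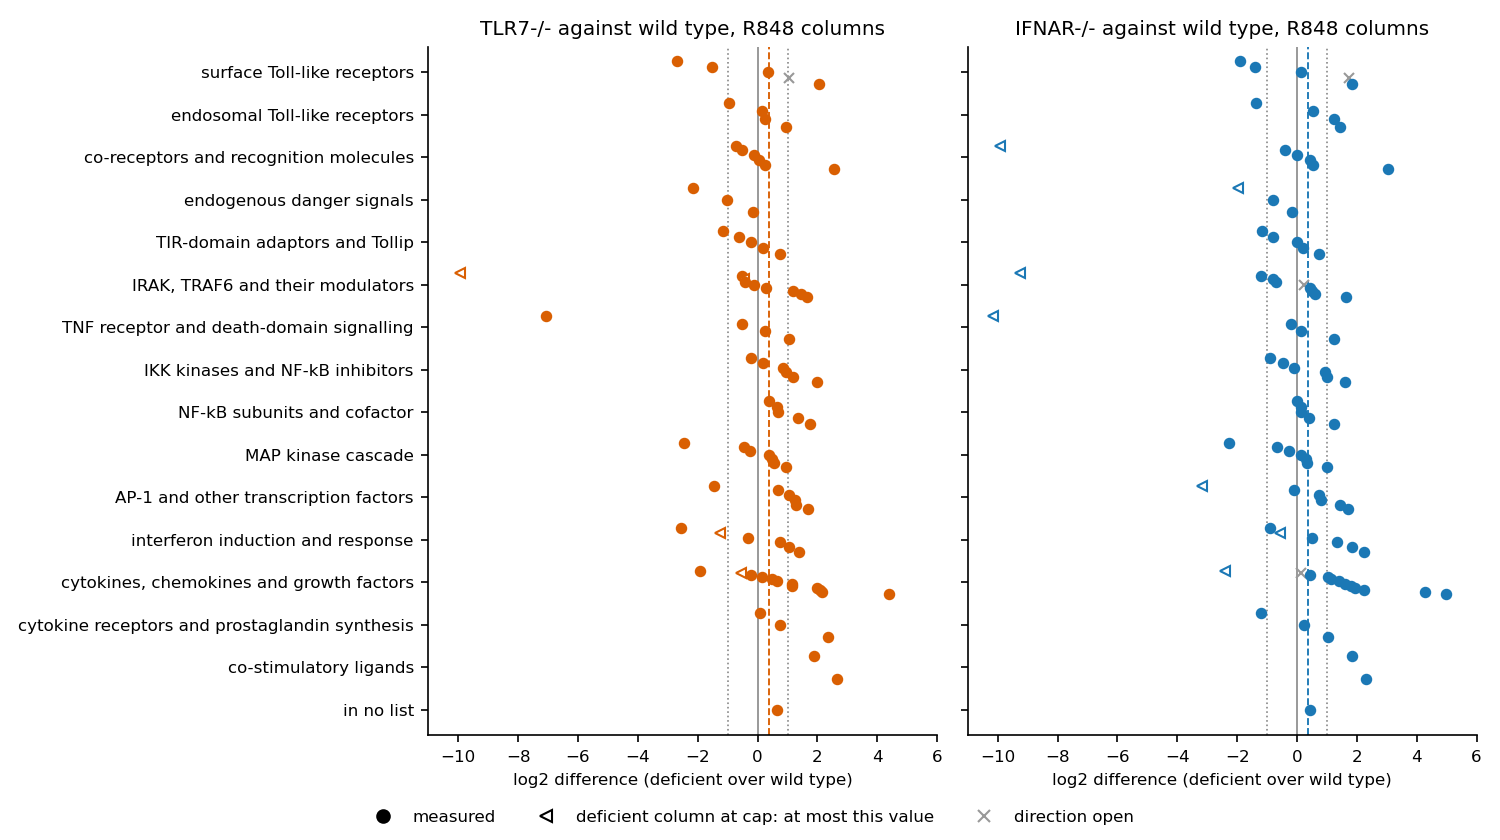
Log2 difference of each gene in R848-treated spleen, deficient strain over wild type (left TLR7-/-, right IFNAR-/-), in rows by role; filled circles are measured, open triangles are upper limits set by the ceiling, crosses have no direction, dotted lines mark 2-fold and the dashed line the median of the 84 genes (0.39 and 0.36). Cytokine genes reach furthest to the right, up to *Il6* at 4.39 and 4.99, and apart from *Tollip* and *Mapk8* the adaptors and MAP kinase genes lie within 2-fold.

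Genes of interferon induction and response differed between strains gene by gene. *Tbk1*, the kinase that activates IRF3, was at 6.27 in wild type, 5.23 in TLR7-/- and 4.93 in IFNAR-/-, 2.06-fold and 2.53-fold higher. After centring on the median gene it was below 2-fold in each strain. *Irf3*, the substrate of TBK1, was at 12.22, 10.83 and 11.73, 2.62-fold higher in TLR7-/- and 1.40-fold in IFNAR-/-. *Irf1*, an interferon-gamma-inducible factor, was at 2.52, 2.83 and 3.43, lower by less than 2-fold in each. *Ifnb1*, interferon beta, was a very late signal at 14.37 in wild type and at the ceiling in each deficient strain. It was at least 2.39-fold lower in TLR7-/- and at least 1.47-fold lower in IFNAR-/-, a limit that does not reach 2-fold.

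*Eif2ak2* and *Cxcl10*, interferon-inducible genes, took different places in the 3 strains. *Eif2ak2*, the double-stranded-RNA-activated kinase PKR, was at 5.97 in wild type, 8.53 in TLR7-/- and 4.13 in IFNAR-/-. It was 5.90-fold lower than wild type in TLR7-/- and 3.58-fold higher in IFNAR-/-, so its levels in the deficient strains lay on either side of wild type. *Cxcl10*, a chemokine for activated T cells, was at 2.27, 1.53 and 0.03. It was 1.67-fold higher in TLR7-/- and 4.72-fold higher in IFNAR-/-, so its level was highest in the strain without the type I interferon receptor. Of 6 interferon-inducible genes (those 2, *Irf1*, *Tlr3*, *Tlr7* and *Myd88*), 0 were higher and 1 was lower in TLR7-/-, and 3 were higher and 1 lower in IFNAR-/-, beside 29.8% higher and 14.3% or 15.5% lower over the plate. The TLR7-/- count was 2 higher and 1 lower with *Gapdh* alone, and 0 and 2 under the other 4 settings.

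The promoters of *Cxcl10*, *Eif2ak2* and *Il6* are shown because the first pair had the most divergent strain pattern of the interferon-inducible genes and *Il6* had the largest measured difference among the cytokines. They are RefSeq sequences of GRCm38.p6, on the strand of the gene, and 71 of the 84 genes matched an entry with such a window of 250 bases before to 50 after the start. Both strands were searched for the core of an interferon-stimulated response element (GAAA, any 2 bases, GAAA) and for a kappa-B core, the kind of site NF-kB binds (GGGA, any 4 bases, CC). Capitals mark the matches. The *Cxcl10* sequence is chr5:92348890-92349139, minus strand, the 250 bases before the start, with the first core 213 bases upstream and kappa-B cores 159 and 103 bases upstream. The *Eif2ak2* sequence is chr17:78882537-78882562, minus strand, 26 bases around an interferon core that begins 19 bases after the start. A kappa-B core 23 bases upstream of that start lies outside the stretch shown. The *Il6* sequence is chr5:30012864-30013113, plus strand, with kappa-B cores on the plus and minus strands that overlap and begin 44 and 43 bases upstream.
Cxcl10: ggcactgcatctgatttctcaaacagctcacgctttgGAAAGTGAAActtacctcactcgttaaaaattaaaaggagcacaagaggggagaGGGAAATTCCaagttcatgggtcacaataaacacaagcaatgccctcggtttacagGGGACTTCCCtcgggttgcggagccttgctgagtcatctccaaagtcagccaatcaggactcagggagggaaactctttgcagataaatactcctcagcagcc
Eif2ak2: tccgccggGAAAACGAAAcagaagag
Il6: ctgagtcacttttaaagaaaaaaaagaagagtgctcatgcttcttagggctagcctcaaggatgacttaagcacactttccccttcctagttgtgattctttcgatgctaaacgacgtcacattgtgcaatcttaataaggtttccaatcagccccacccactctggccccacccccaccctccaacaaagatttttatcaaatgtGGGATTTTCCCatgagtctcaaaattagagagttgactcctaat
The interferon core is in 3.44% of all 300-base windows and the kappa-B core in 20.7%. Per gene, with any window counted, the shares are 3.99% and 22.9% over all genes, and 5.63% and 39.4% over the 71 plate genes. A match describes the letters alone and is no evidence that a factor binds there.

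Cytokines, chemokines and growth factors are the largest role group. Of 12, 6 were higher and 1 lower in TLR7-/-, and 9 were higher and 1 lower in IFNAR-/-, with 1 more of no direction. Over the plate 29.8% were higher in each strain, and 14.3% were lower in TLR7-/- and 15.5% in IFNAR-/-. The 9 include *Ccl2*, in one of the first 4 wells. The median difference of the 12 was 0.89 in TLR7-/- and, over the 11 with a direction, 1.59 in IFNAR-/-. Centred on the median of all 84 genes, 4 and 7 remained higher.

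*Il6*, the acute-phase cytokine, had the largest measured difference outside the first 4 wells in each deficient strain. It was at 13.62 in wild type, 9.23 in TLR7-/- and 8.63 in IFNAR-/-, 21.0-fold and 31.8-fold higher. The wild-type value is late, and whether it includes a reading at the ceiling in 1 of the 2 experiments cannot be seen from the mean. *Il1a* and *Il1b*, the fever cytokines of the IL-1 family, were also higher. *Il1a* was at 11.42, 9.43 and 9.63, 3.97-fold and 3.46-fold higher, and *Il1b* at 5.97 in wild type and 4.83 in each deficient strain, 2.20-fold higher. *Il12a*, the p35 subunit of IL-12, which drives interferon gamma production, was at 10.12, 8.03 and 8.73, 4.26-fold and 2.62-fold higher. *Ifng*, interferon gamma, was at 10.17, 9.03 and 9.13, 2.20-fold and 2.06-fold higher. Centring on the median gene took *Ifng* to 0.75 and 0.68 and *Il1b* to 0.75 and 0.78 on the log2 scale, below 2-fold.

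A further group of cytokines was higher in IFNAR-/- and near wild type in TLR7-/-. *Tnf*, the inflammatory cytokine of macrophages, was at 6.12 in wild type, 5.63 in TLR7-/- and 4.53 in IFNAR-/-, 1.40-fold and 3.01-fold higher. *Il10*, the main anti-inflammatory cytokine, was at 6.77, 6.63 and 4.83, 1.10-fold and 3.84-fold higher. *Csf2*, which encodes GM-CSF, was at 13.67, 13.03 and 11.43, 1.56-fold and 4.72-fold higher. Its wild-type value is as late as that of *Il6* and carries the same limit. *Ccl2*, the monocyte chemokine, was at 9.92, 10.13 and 5.63, within 2-fold in TLR7-/- and 19.6-fold higher in IFNAR-/-. *Ccl2* is in one of the first 4 wells, next to *Cd14*, which stood at the ceiling in IFNAR-/-. *Lta*, lymphotoxin alpha of lymphocytes, lay the other way round, at 7.87, 5.73 and 7.43, 4.41-fold higher in TLR7-/- and 1.36-fold in IFNAR-/-.

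*Il2*, the T-cell growth factor, was the cytokine that was lower. It was a late signal, at 12.52 in wild type, 14.43 in TLR7-/- and the ceiling in IFNAR-/-, 3.76-fold and at least 5.31-fold lower. *Csf3*, which encodes G-CSF, was at 15.07 in wild type and at the ceiling of each deficient column. Downstream of the cytokines, *Ptgs2*, the inducible cyclooxygenase COX-2, was at 13.27, 10.93 and 12.23, 5.06-fold and 2.06-fold higher. Its wild-type value is also late, and its IFNAR-/- difference was below 2-fold with *Hprt1* alone or after centring. *Il6ra*, the IL-6 receptor, was at 4.72, 4.63 and 5.93, level in TLR7-/- and 2.31-fold lower in IFNAR-/-. *Il1r1*, the IL-1 receptor, stayed within 2-fold, at 8.37, 7.63 and 8.13.

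The co-stimulatory ligands of antigen-presenting cells were higher in each deficient strain under every reference tried. *Cd80* was at 10.37 in wild type, 7.73 in TLR7-/- and 8.53 in IFNAR-/-, 6.23-fold and 3.58-fold higher. *Cd86* was at 5.72, 3.83 and 3.43, 3.71-fold and 4.89-fold higher. Each of these differences lay above the median of the plate.

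Set directly beside each other, the R848-treated spleens of the deficient strains differed at fewer genes than either did from wild type. In that comparison 7 of 84 genes (8.33%) were higher in IFNAR-/- than in TLR7-/- and 9 (10.7%) were lower, 3 of these known only as bounds, with 6 genes of no direction. Over the 74 genes measured in both, the median absolute difference was 0.40 cycles, and 48 lay within 0.5 cycles. The corresponding median was 0.84 for TLR7-/- and 0.86 for IFNAR-/- against wild type. The 7 higher genes were *Ccl2* (22.6-fold), *Eif2ak2* (21.1-fold), *Il10* (3.48-fold), *Csf2* (3.03-fold), *Cxcl10* (2.83-fold), *Tnf* (2.14-fold) and *Tlr7* (2.14-fold). *Cd14* was at least 588-fold lower in IFNAR-/- than in TLR7-/-, *Casp8* at least 8.57-fold and *Ppara* at least 3.25-fold. *Lta* was 3.25-fold lower, *Il6ra*, *Ptgs2* and *Ikbkb* each 2.46-fold, *Rel* 2.30-fold and *Irak2* 2.00-fold. With *Gapdh* alone as the reference the split was 5 higher and 13 lower.

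The first 4 wells of the plate hold *Btk*, *Casp8*, *Ccl2* and *Cd14*. The largest strain differences were those of *Btk* and *Casp8* in TLR7-/-, and of *Casp8*, *Cd14* and *Btk* in IFNAR-/-. *Ccl2* and *Cd14* were within 2-fold in TLR7-/-, and *Ccl2* differed less than *Il6* in IFNAR-/-. In the 80 other wells the largest measured difference was 4.39 in TLR7-/- and 4.99 in IFNAR-/-, both from *Il6*. *Btk* was at the ceiling in the Mock columns of the deficient strains as well, and at 4.10 in wild-type Mock. *Casp8* was at 6.00 in wild-type Mock, 10.60 in TLR7-/- Mock and the ceiling in IFNAR-/- Mock. In the IFNAR-/- R848 column *Cd14* stood at the ceiling while *Ccl2* read 5.63, and in the TLR7-/- Mock column *Cd14* again stood at the ceiling while *Ccl2* read 4.70. In the other columns where *Cd14* was detected it read between 5.02 and 8.13, and *Ccl2* read 9.80 to 10.13 or stood at the ceiling. The part of plate position in these 4 genes' values was not tested. Without these wells 25 genes were higher and 10 lower in TLR7-/-, and 24 higher and 10 lower in IFNAR-/-.

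**Figure D3:**
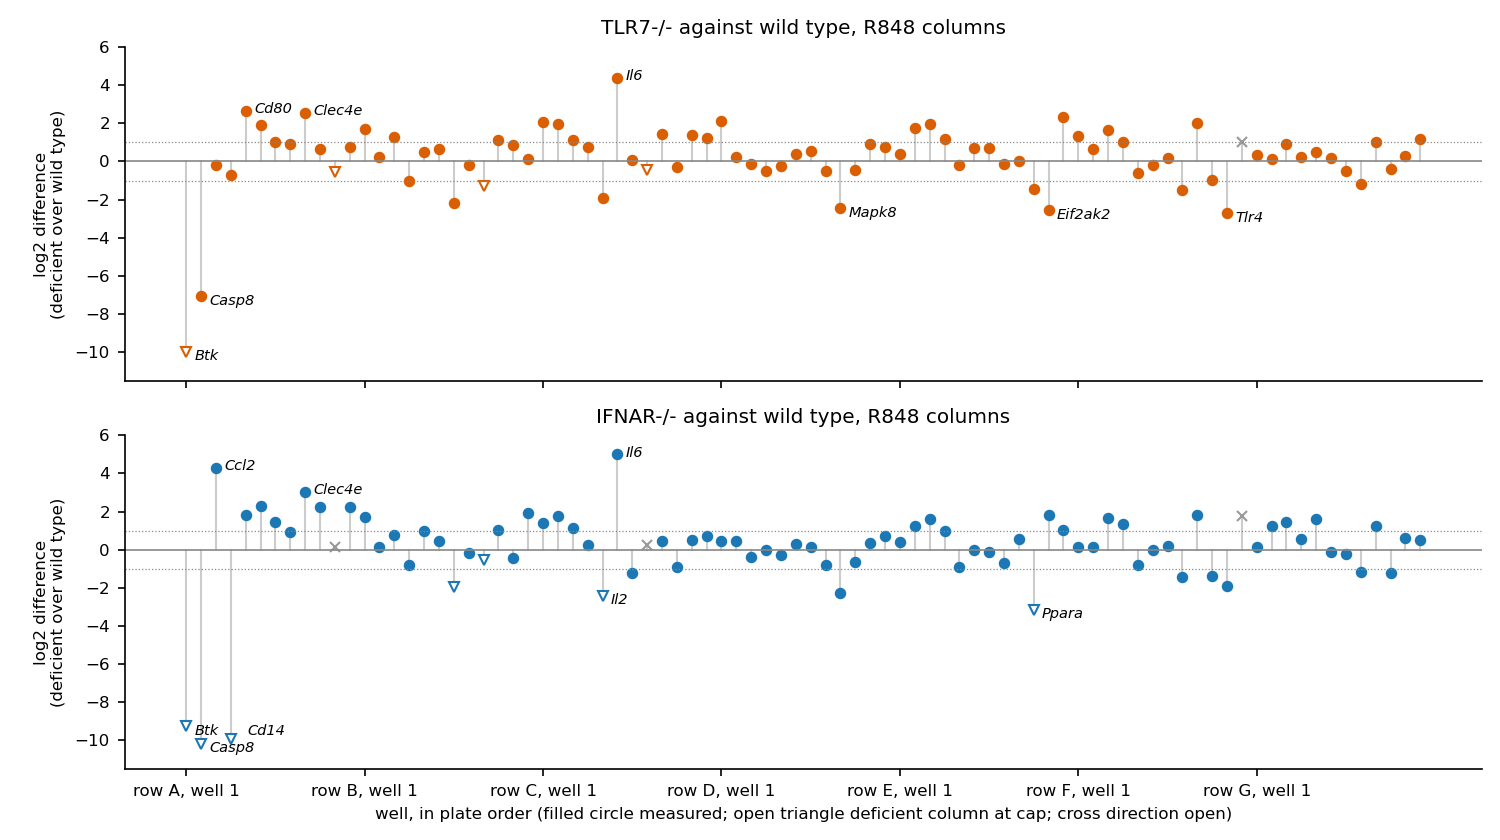
Log2 difference, deficient strain over wild type, of the 84 pathway genes in R848-treated spleen in the order of their wells (top TLR7-/-, bottom IFNAR-/-); filled circles are measured, open triangles are upper limits set by the ceiling, crosses have no direction and dotted lines mark 2-fold. Differences beyond 7 cycles appear in the first wells alone, at *Btk* and *Casp8* in TLR7-/- and at *Btk*, *Casp8* and *Cd14* in IFNAR-/-.

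The same strain differences were also read between Mock-treated spleens. Between Mock columns 41 genes (48.8%) were higher and 4 (4.76%) lower in TLR7-/- than in wild type, with a median of 0.92. In IFNAR-/- 4 (4.76%) were higher and 26 (31%) lower, with a median of -0.33. *Actb* and *Gusb*, outside the reference, differed between Mock columns by 1.05 and 1.1 in TLR7-/-, and by -0.48 and -0.73 in IFNAR-/-. The ceiling of the Mock columns was 13.15 in wild type, 15.1 in TLR7-/- and 12.43 in IFNAR-/-. The Mock counts were not recomputed with another reference. Of the 25 genes higher in R848-treated TLR7-/- spleen, 17 were also higher in Mock and 8 were within 2-fold. Among these, *Il6* differed by 3.00 in Mock and 4.39 in R848, *Clec4e* by 3.95 and 2.54, *Tlr2* by 2.00 and 2.04, and *Cd80* by 1.20 and 2.64. The Mock difference of *Cd80* lies near the Mock median of 0.92, as do those of *Irak2* (1.1), *Nfkb2* (1.0) and *Tbk1* (1.2). Those of *Il6*, *Clec4e* and *Tlr2* lie further above it. The 17 were not recounted after centring the Mock columns. *Nfkbia* (0.85 and 1.99), *Il12a* (0.85 and 2.09), *Lta* (0.70 and 2.14) and *Ripk2* (0.10 and 1.64) were past 2-fold between R848 columns alone; the change from Mock to R848 was not tested. *Il10*, at 0.14 between R848 columns, had differed by 4.60 between Mock columns.

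For IFNAR-/- the Mock values lay differently. Of the 23 genes higher in R848 with a known Mock direction, 2 were also higher in Mock, 15 within 2-fold and 6 lower. *Cxcl10* was 11.6-fold lower than wild type in Mock, at 5.53 against 2.00, and 4.72-fold higher in R848. *Tnf* was 3.68-fold lower in Mock, at 8.43 against 6.55, and 3.01-fold higher in R848. Of the 11 lower genes with a known Mock direction, 7 were also lower in Mock and 4 within 2-fold. *Mapk8* was lower by similar amounts, at -2.43 in Mock and -2.26 in R848, as was *Tlr1*, at -1.38 and -1.41.

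Over all genes of known direction, strain differences in Mock and R848 correlated with Pearson's r of 0.63 and Spearman's rho of 0.32 for TLR7-/- (78 genes), and 0.58 and 0.29 for IFNAR-/- (76 genes). Without the first 4 wells r was 0.32 and 0.20, and rho 0.27 and 0.25. These are descriptions across genes of the same plates, and genes are not independent replicates.

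**Figure D4:**
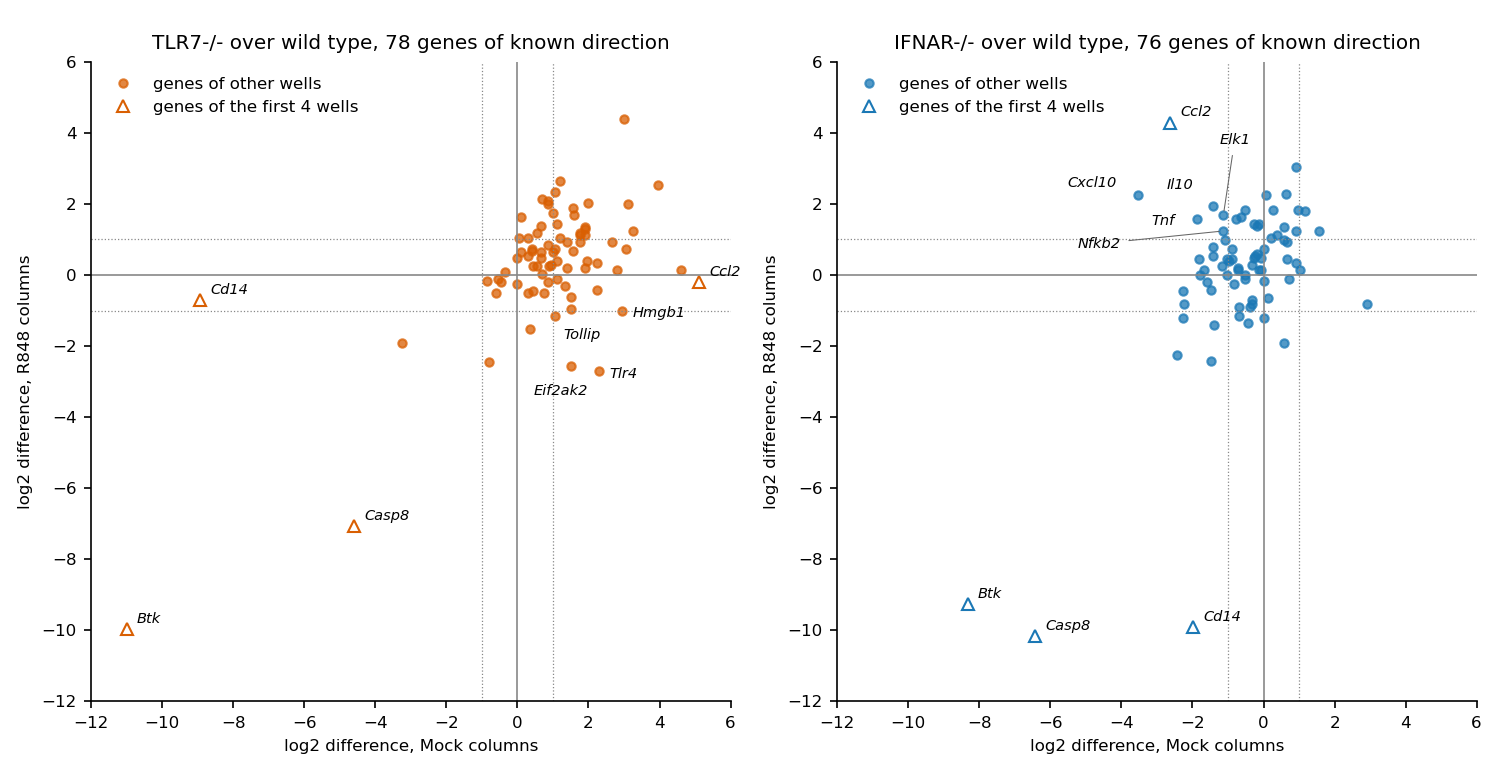
Log2 difference, deficient strain over wild type, between R848 columns (vertical) and between Mock columns (horizontal) for genes of known direction in both (left TLR7-/-, 78 genes; right IFNAR-/-, 76 genes), with upper limits drawn at their limit; triangles are the first 4 wells, dotted lines mark 2-fold, and the labelled circles are past 2-fold in opposite directions. The TLR7-/- cloud lies to the right of 0 and the IFNAR-/- cloud largely to the left. Without the triangles Pearson's r is 0.32 and 0.20, from 0.63 and 0.58, and Spearman's rho 0.27 and 0.25, from 0.32 and 0.29.

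Genes linked to particular spleen cells did not move as blocks, and the plate holds few markers of any cell type. Of 3 B-cell-associated genes, *Btk* was at the ceiling in each deficient strain, *Cd86* was higher and *Ly86* was within 2-fold, at 2.92, 3.03 and 3.33. Of 7 myeloid-linked genes, 2 were higher and 1 lower in TLR7-/-, and 2 higher and 2 lower in IFNAR-/-. Over the plate 29.8% were higher in each strain, and 14.3% and 15.5% were lower. *Clec4e* and *Il1b* were higher and *Tlr4* lower in each strain, and *Cd14*, one of the first 4 wells, was lower in IFNAR-/-. *Csf3*, a growth factor gene counted in this list, was at the ceiling of each deficient column. Among the T- and NK-cell products *Ifng* and *Lta* were higher and *Il2* lower in TLR7-/-, and *Ifng* was higher and *Il2* lower in IFNAR-/-. The *Il1b* and *Ifng* differences fell below 2-fold after centring on the median gene. The stromal and epithelial genes *Il1r1* and *Muc13* stayed within 2-fold, and *Ppara* was lower. The part of cell composition in the strain differences was not tested.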

How the data were processed

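Whole-spleen RNA was read on a TLR-pathway PCR plate. The deposited values are delta-Ct, in cycles and so on a log2 scale; per the file headers each is the Ct of a gene minus the mean Ct of 3 housekeeping genes. Per the series' design text, Ct above 35 or blank had been set to 35, and the wild-type values summarise 2 experiments. The authors also deposited a ratio, R848 over Mock. Recomputing it from delta-Ct gave the same value for all 89 genes of every table, to 0.02 cycles or 0.005 in the ratio, and it was not used further. Each table's name gave its strain. Another 6 columns of per-sample values repeat delta-Ct in linear form and were not used.

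A log2 difference was wild-type delta-Ct minus deficient delta-Ct. The ceiling of a column was its highest delta-Ct where genes shared it, and 35 minus the ceiling is the mean reference Ct. That was 19.37 in TLR7-/- and 20.07 in IFNAR-/- R848 spleen. In the wild-type R848 column *Tlr5* alone stood highest, so the reference Ct was at most 18.33 and the ceiling is not identified. A wild-type gene at the ceiling in 1 experiment cannot be recognised. The repeatability of a reading is unknown.

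Genes were counted at 2-fold in known direction, with no test. Named genes are the 15 highest and up to 15 lowest past 2-fold in each deficient strain (12 in TLR7-/- and 13 in IFNAR-/-), a fixed set of receptors, adaptors, cytokines, capped and housekeeping genes, and the 5 with the smallest range; other genes were named to complete their list. The members, the 15 role lists and 6 further lists, and the rule were chosen with earlier results of these data known. Alternatives changed the reference (*Hprt1*, *Hsp90ab1* or *Gapdh* by itself, the mean of 5 housekeeping genes, or the median of the 84 genes), left out late or capped genes or the first 4 wells, or moved the threshold to 1.5-fold or 3-fold. Scripts used Python 3.11.15, pandas 2.3.3 and numpy 2.4.6.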

Additional observations from a re-analysis of the deposited data

Results flagged for a closer look

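For 10 genes the strain difference was at least 2-fold in one direction between R848-treated spleens and at least 2-fold in the other between Mock-treated spleens. With 1 column per strain and treatment these reversals were not tested, and each R848 and Mock difference shares no column with the other. The Mock differences were not recomputed with another reference.

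In TLR7-/- against wild type 4 genes reversed, each lower in R848 and higher in Mock. *Tlr4* differed by -2.71 in R848 and 2.30 in Mock, on the log2 scale, with wild type going from 9.30 in Mock to 4.72 in R848 and TLR7-/- at 7.00 and 7.43. *Eif2ak2* differed by -2.56 and 1.5, with wild type at 9.80 and 5.97 and TLR7-/- at 8.30 and 8.53. *Tollip* differed by -1.16 and 1.05, and *Hmgb1*, the gene nearest the threshold, by -1.01 and 2.95. With *Gapdh* alone the R848 differences of *Tollip* and *Hmgb1* fell below 2-fold. The Mock difference of *Tollip* lies near the Mock median of 0.92 over the 84 genes. For *Tlr4* and *Eif2ak2* the TLR7-/- values lie within 0.5 cycles of each other.

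In IFNAR-/- 6 genes reversed, each higher in R848 and lower in Mock. *Cxcl10* differed by 2.24 in R848 and -3.53 in Mock, with IFNAR-/- at 0.03 and 5.53. *Ccl2*, one of the first 4 wells, differed by 4.29 and at most -2.63, since IFNAR-/- Mock stood at the ceiling of 12.43. *Il10* differed by 1.94 and at most -1.43, from the same ceiling. *Tnf* differed by 1.59 and -1.88, *Elk1* by 1.69 and -1.13, and *Nfkb2* by 1.24 and -1.13. The Mock differences of *Elk1* and *Nfkb2* lie nearest the threshold, and the Mock median over the 84 genes was itself -0.33. After centring on the median gene the R848 difference of *Nfkb2* was 0.88, below 2-fold.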

How the results depend on the processing

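Of 60 counts recomputed under another setting, 48 were within 1.5 times the reported one. Centring on the median gene gave 15 higher genes in TLR7-/- and 20 lower in IFNAR-/-. Leaving out genes at the ceiling, or those above Ct 33, gave 7 lower genes in IFNAR-/- by each rule, since 6 of its 13 lower genes stood at the ceiling. In TLR7-/- the lower count was 10 without genes at the ceiling and 8 without those above Ct 33. The 1.5-fold threshold gave 20 lower genes in IFNAR-/- against wild type and 20 in IFNAR-/- against TLR7-/-. The 3-fold threshold gave 13 higher and 7 lower in TLR7-/-, 15 higher and 8 lower in IFNAR-/-, and 4 higher and 4 lower in IFNAR-/- against TLR7-/-. Centring shifted every difference from wild type by -0.39 in TLR7-/- and -0.36 in IFNAR-/-. By construction this shift can only lower the higher counts and raise the lower counts. Over all calls, 10 of 25 higher and 2 of 12 lower genes in TLR7-/-, and 7 of 25 higher and 0 of 13 lower genes in IFNAR-/-, fell below 2-fold under at least 1 reference setting. Among the settings tried, reference choice shifted all differences from wild type by between -0.39 and 0.26 in TLR7-/- and between -0.36 and 0.16 in IFNAR-/-. *Actb* or *Gusb* alone was not tried. No paired analysis was possible because the deficient strains have 1 sample each and the wild-type table gives only a mean. Leaving out a wild-type replicate was not run for the same reason. The genes at the ceiling, 5 in TLR7-/- and 10 in IFNAR-/-, have only a limit.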
